A study of Mus musculus with 10 samples.

Results

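Antigen presentation genes were followed across 7 mouse liver tissues, with 10 members chosen by name among the 31053 genes in the files. They were B2m, H2-K1, H2-D1 and H2-Q10 for class I molecules, Tap1, Psmb8 and Psmb9 for the supply of class I peptides, and Cd74, H2-Aa and H2-Ab1 for class II molecules. RNA was captured from thin frozen sections on Visium slides (10x Genomics), where a barcoded spot lies under a patch of several cells, often of mixed type, and was counted as unique molecular identifiers (UMIs). NEJ146 gave 4 adjacent sections, and NEJ634, NEJ638, NEJ654, NEJ677, NEJ687 and NEJ723 gave 1 section each. Levels are CPM, the UMIs of a gene per 1000000 UMIs over the tissue spots of a section.

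The study's model is the ABC-Myc mouse on a C57BL/6J background, in which Cre recombinase under the mouse albumin enhancer and promoter switches on a human MYC transgene driven by the CAG promoter, so that the driver acts in hepatocytes and their precursors. The healthy livers of the study came from animals without the full transgene pair. The labels call all 10 samples hepatoblastoma, a liver cancer of early childhood, and give neither the genotype, the sex nor the age of the animal behind a section. The study's text counts NEJ146, NEJ634, NEJ687 and NEJ723 as tumors and holds healthy livers besides, which leaves NEJ638, NEJ654 and NEJ677. Each tissue was kept as its own group and no test between tumor and liver was made. Afp, the fetal liver protein that marks hepatoblastoma, was at 2023 CPM in NEJ146, 4248 in NEJ634, 4083 in NEJ687 and 3280 in NEJ723, but only 3.79 CPM in NEJ654, 4.96 in NEJ677 and 9.63 in NEJ638, so the label is not borne out by this marker in the last 3. Alb, the albumin gene of hepatocytes, was between 7839 and 85700 CPM in all 7 tissues.

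Sections held 61627315 to 117556249 UMIs, with 1890 to 4878 tissue spots. NEJ146 stood apart from the other 6 tissues: its labels name total rather than polyadenylated RNA, its tissue spots were taken as those with at least 8000 UMIs because no tissue call was at hand, and mitochondrial genes held 6.78% to 7.22% of its tissue UMIs against 2.46% to 3.86%. The paper's methods describe the same Visium protocol for the spatial sections, so a different preparation of NEJ146 rests on that label only. What is particular to NEJ146 and to its batch cannot be told apart, since no other tissue shares them. With 1 section per tissue elsewhere, the 95% intervals are exact Poisson intervals that cover counting error only, and the standard deviation (SD) of NEJ146 reflects how its 4 sections and libraries differed. The spread between animals is in none of these values.

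Class I molecules sit on nearly all nucleated cells and show peptides from the cell's own proteins to CD8 T cells. A polymorphic heavy chain, H2-K or H2-D in these mice, is held by beta-2 microglobulin, the product of B2m. The peptides are cut by the proteasome, in which the inducible subunits encoded by Psmb8 and Psmb9 can take the place of those encoded by Psmb5 and Psmb6, and the TAP1 and TAP2 proteins carry them into the endoplasmic reticulum. H2-Q10 encodes a class I heavy chain that the mouse liver secretes into blood. Class II molecules are made chiefly by dendritic cells, B cells and macrophages and show peptides from engulfed proteins to CD4 T cells. Their alpha and beta chains, H2-Aa and H2-Ab1, are escorted by the invariant chain encoded by Cd74. Interferon gamma is a known inducer of both sets.

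Of the 10 genes, 8 have a RefSeq promoter window in the table used here (GRCm38.p6, 250 bases before to 50 after a transcription start), with a pair of start sites for H2-K1. Cd74 and H2-Ab1 have no window there. The sequences below are shown because the surface class I genes and the secreted H2-Q10 share most of their promoter letters and differ within a regulatory stretch, and because the class II gene carries another arrangement. In the first pair the capitals mark enhancer A (GGGGATTCC), the TGACG core of an X2 site and the Y box (ATTGG, or CCAAT where it lies on the other strand). In H2-Q10 the capitals mark the stretch that aligns with enhancer A.
H2-D1, chr17:35262914-35263045, plus strand: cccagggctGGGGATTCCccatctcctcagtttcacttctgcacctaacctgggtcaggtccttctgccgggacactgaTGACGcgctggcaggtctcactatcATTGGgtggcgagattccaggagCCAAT
H2-K1, chr17:34000335-34000467, minus strand: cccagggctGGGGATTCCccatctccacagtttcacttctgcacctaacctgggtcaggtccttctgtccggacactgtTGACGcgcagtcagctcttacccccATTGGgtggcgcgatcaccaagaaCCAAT
H2-Q10, chr17:35469904-35470041, plus strand: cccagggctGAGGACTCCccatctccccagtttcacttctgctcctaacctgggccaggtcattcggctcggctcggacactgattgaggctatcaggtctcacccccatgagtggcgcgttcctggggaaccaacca

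Over the aligned windows, H2-D1 was identical to H2-Q10 at 88.3% of 290 bases and to H2-K1 at 88.3% of 239 bases. Against H2-D1, the H2-Q10 stretch carries the substitutions G2A and T6C, with positions counted from 1 at the first base of enhancer A. Windows holding GGGGATTCC on either strand made up 0.25% of 32851 RefSeq windows, and H2-K1 and H2-D1 were the members that held it.
The windows of B2m and H2-Aa are shown for contrast. Capitals mark the TGACG core, the Y box and, in B2m, GAAANNGAA, the pattern searched for the interferon-stimulated response element. In H2-Aa the core lies on both strands as the palindrome in capitals.
B2m, chr2:122147542-122147641, plus strand: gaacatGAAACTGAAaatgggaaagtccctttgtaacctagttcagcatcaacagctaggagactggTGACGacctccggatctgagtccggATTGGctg
H2-Aa, chr17:34287859-34287908, minus strand: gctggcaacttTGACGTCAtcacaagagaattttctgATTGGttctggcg

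GAAANNGAA was found in 8.56% of all windows and in that of 1 member, B2m. ATTGG was in 37.4% of windows and in those of 6 members, and TGACG was in 20.8% and in those of 6 members. The windows of H2-Q10 and Psmb8 held none of the 4 motifs as spelled here. Tap1 and Psmb9 are transcribed away from each other and their windows share 275 bases, so they are not independent examples. A match is a description of letters, and no match says only that these letters are not in the window. On GRCm38, B2m lies on chromosome 2 (122147686 to 122153083) and Cd74 on chromosome 18 (60803848 to 60812652). The other 8 lie on chromosome 17, from H2-K1 (33996017 to 34000347) through Psmb9, Tap1, Psmb8 (34197721 to 34201454), H2-Ab1 and H2-Aa (34282744 to 34287823) to H2-D1 (35262730 to 35267499) and H2-Q10 (35470089 to 35474563).

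The 3 class I chains were lowest in NEJ723 and highest in NEJ654. B2m was at 963, 1022, 880.5 and 789 CPM in NEJ146 sections 1 to 4 (913 ± 101, SD, n = 4 sections). It was at 686 CPM in NEJ723, 933 in NEJ634, 1035 in NEJ687, 1404 in NEJ638, 1576 in NEJ677 and 2153 in NEJ654 (95% interval 2139 to 2167). NEJ634 and NEJ687 lay within 2 SD of the NEJ146 mean and are not separated from NEJ146 by that spread. NEJ687 was just above the highest NEJ146 section. NEJ638, NEJ654 and NEJ677 were above every NEJ146 section and beyond 2 SD. In bulk levels of a section, fewer cells of a type and less RNA per cell cannot be told apart.

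H2-K1, a class I heavy chain, was at 475, 455, 426 and 339 CPM in the NEJ146 sections (424 ± 59.9, SD, n = 4 sections). It was at 305 CPM in NEJ723, 433 in NEJ634, 595 in NEJ687, 933 in NEJ638, 1186 in NEJ677 and 1319.6 in NEJ654. H2-D1, the other heavy chain, was at 298, 309.7, 273 and 219 CPM in the NEJ146 sections (275 ± 40.5, SD, n = 4 sections). It was at 128.2 CPM in NEJ723, 184 in NEJ634, 329.8 in NEJ687, 346 in NEJ638, 455 in NEJ677 and 459 in NEJ654. For H2-D1 the intervals of NEJ654 (452 to 465) and NEJ677 (448 to 461) overlapped, and NEJ687 lay next to NEJ638. The heavy chains did not move in a fixed proportion: the H2-K1 count was 1.54 times that of H2-D1 in NEJ146 and 1.80 times in NEJ687, and between 2.35 and 2.88 times in the other 5 tissues. Class I heavy chain genes are near-identical over parts of their length, and how the counting treated reads they share is not given in the sources used here, so the split among H2-K1, H2-D1 and H2-Q10 is uncertain.

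H2-Q10, the secreted heavy chain, fell into separate ranges. It was at 1142, 1025, 1013 and 929 CPM in the NEJ146 sections (1027 ± 87.3, SD, n = 4 sections), 1193 CPM in NEJ723, 1351 in NEJ634 and 1435 in NEJ687. It was at 3539 CPM in NEJ638, 3895 in NEJ654 (3876 to 3913) and 3944 in NEJ677 (3925 to 3964). No tissue lay between 1435 and 3539 CPM. Set against Alb, another secreted liver product, the order turned. The ratio of H2-Q10 to Alb was 0.166 in NEJ687, 0.152 in NEJ723, 0.110 in NEJ146 and 0.103 in NEJ634. It was lower in NEJ677 (0.0764), NEJ638 (0.0507) and NEJ654 (0.0454). Alb had a fold range of 10.9 over the tissues, against 3.84 for H2-Q10. Other secreted products varied less than Alb, with fold ranges of 3.30 for Ttr, 3.33 for Apoa1 and 4.52 for Serpina1a. The turned order is thus one against Alb, and ratios to those other products were not computed.

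**Figure D1:**
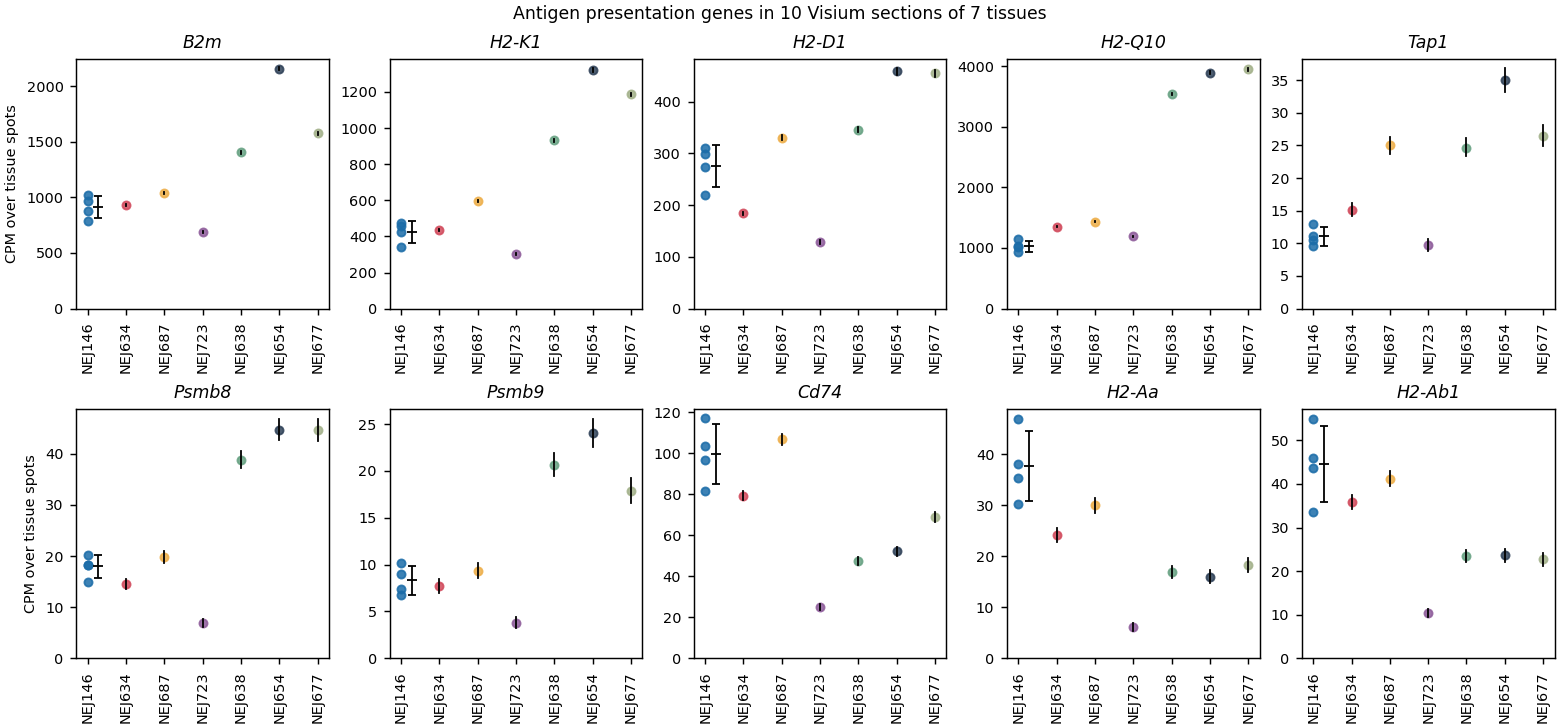
CPM over tissue spots (vertical axes, from 0) of the 10 genes in the 7 tissues. Points are sections, with bars for the exact Poisson 95% interval in tissues with 1 section and for the mean ± SD of the 4 NEJ146 sections; class I and peptide supply genes reach their highest values among NEJ638, NEJ654 and NEJ677, and class II genes theirs in NEJ146 or NEJ687.

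The peptide supply genes had fewer UMIs and wider intervals. Tap1, a subunit of the peptide transporter, was at 11.1, 13.0, 10.5 and 9.67 CPM in the NEJ146 sections (11.1 ± 1.40, SD, n = 4 sections). It was at 9.72 CPM in NEJ723, 15.1 in NEJ634, 24.7 in NEJ638, 25.02 in NEJ687, 26.5 in NEJ677 and 35.02 in NEJ654. The intervals of NEJ638 (23.3 to 26.1), NEJ687 (23.7 to 26.4) and NEJ677 (24.9 to 28.2) overlapped, so NEJ687 could not be set apart from NEJ638 and NEJ677 by this gene.

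Psmb8, an inducible proteasome subunit, was at 18.3, 20.2, 18.3 and 14.9 CPM in the NEJ146 sections (17.95 ± 2.20, SD, n = 4 sections). It was at 6.87 CPM in NEJ723 (300 UMIs), 14.5 in NEJ634, 19.8 in NEJ687, 38.9 in NEJ638, 44.7 in NEJ654 and 44.7 in NEJ677. Psmb9, its partner subunit, was at 7.38, 10.1, 8.97 and 6.72 CPM in the NEJ146 sections (8.30 ± 1.55, SD, n = 4 sections). It was at 3.78 CPM in NEJ723 (3.23 to 4.40), 7.66 in NEJ634, 9.32 in NEJ687, 17.8 in NEJ677, 20.7 in NEJ638 and 24.004 in NEJ654. For both subunits NEJ634 and NEJ687 lay within 2 SD of the NEJ146 mean, and NEJ723 was below every NEJ146 section.

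The third inducible subunit went the other way. Psmb8 over Psmb5, the subunit it replaces, was 0.257, 0.293 and 0.305 in NEJ638, NEJ654 and NEJ677 and 0.0908, 0.0766, 0.0890 and 0.0347 in NEJ146, NEJ634, NEJ687 and NEJ723. Psmb9 over Psmb6 was 0.110, 0.135 and 0.102 in the former tissues and between 0.0178 and 0.0471 in the latter. Psmb10 over Psmb7 was 0.411, 0.388 and 0.345 in NEJ638, NEJ654 and NEJ677 and 1.008, 0.866, 1.20 and 0.938 in NEJ146, NEJ634, NEJ687 and NEJ723. The intervals of the former tissues did not overlap those of the latter, or the mean ± SD of NEJ146, for any of the 3 ratios. None of the constitutive subunits varied past 2-fold, with a median log2 range over the tissues of 0.31, so the ratios follow the inducible subunits. Psmb10 was at 137.5 CPM in NEJ146 and at 55.4 in NEJ638, 53.2 in NEJ654 and 52.2 in NEJ677.

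**Figure D2:**
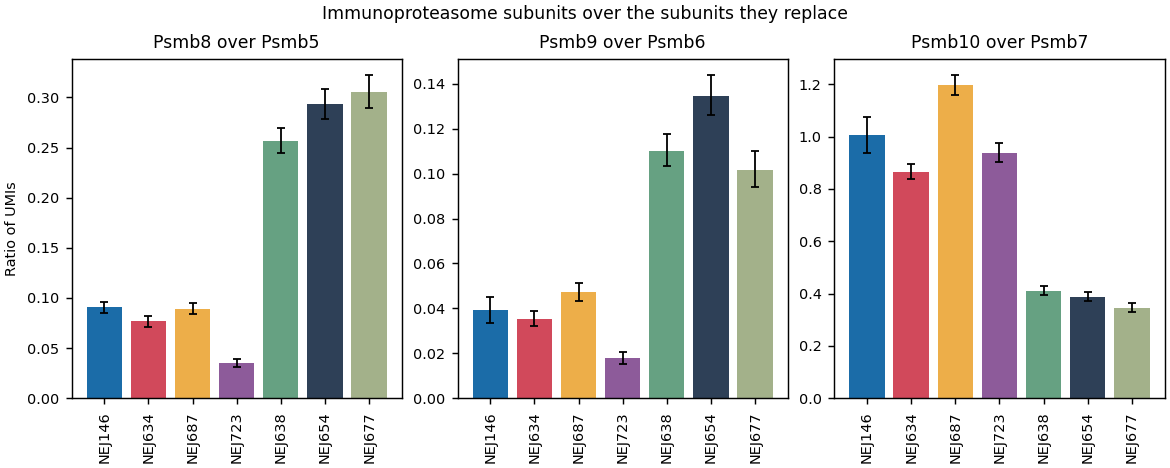
Ratio of UMIs (vertical axes, from 0) of each inducible proteasome subunit to the constitutive subunit it replaces, by tissue; bars are the ratio with its 95% interval from counting, or the mean ± SD of 4 sections for NEJ146. Psmb8 over Psmb5 and Psmb9 over Psmb6 are highest in NEJ638, NEJ654 and NEJ677, where Psmb10 over Psmb7 is lowest (0.345 to 0.411).

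The class II genes had another order. Cd74, the invariant chain, was at 96.4, 117, 103 and 81.5 CPM in the NEJ146 sections (99.6 ± 14.8, SD, n = 4 sections). It was at 107 CPM in NEJ687 (104 to 110), 79.3 in NEJ634, 68.9 in NEJ677, 52.1 in NEJ654, 47.4 in NEJ638 and 24.7 in NEJ723 (23.3 to 26.3). NEJ687 lay within the range of the NEJ146 sections, and the interval of NEJ654 (49.95 to 54.3) was just above that of NEJ638 (45.5 to 49.3).

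H2-Aa, the class II alpha chain, was at 35.4, 46.9, 38.1 and 30.3 CPM in the NEJ146 sections (37.7 ± 6.93, SD, n = 4 sections). It was at 30.0 CPM in NEJ687, 24.1 in NEJ634, 16.0 in NEJ654, 16.9 in NEJ638, 18.3 in NEJ677 and 6.10 in NEJ723 (266 UMIs). H2-Ab1, the beta chain, was at 43.6, 55.0, 45.9 and 33.6 CPM in the NEJ146 sections (44.5 ± 8.78, SD, n = 4 sections). It was at 41.3 CPM in NEJ687, 35.8 in NEJ634, 23.6 in NEJ654, 23.4 in NEJ638, 22.7 in NEJ677 and 10.3 in NEJ723. For each chain the intervals of NEJ638, NEJ654 and NEJ677 overlapped along the order. All 3 class II genes were lowest in NEJ723. That tissue was also the lowest for the class I chains and the peptide supply genes, although for Tap1 a NEJ146 section was at its level, and for H2-Q10 the NEJ146 mean was lower.

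All 10 genes passed a minimum mean of 10 CPM and all 10 had a range over the 7 tissues past 2-fold on the log2(CPM + 1) scale, against 62.2% of the 8021 genes above that minimum. A range past 2-fold was therefore common, and the count says little about these genes. Their log2 ranges were 1.65 for B2m, 2.11 for H2-K1, 1.83 for H2-D1, 1.94 for H2-Q10, 1.75 for Tap1, 2.54 for Psmb8, 2.39 for Psmb9, 2.07 for Cd74, 2.45 for H2-Aa and 2.01 for H2-Ab1. The median was 2.04, beside 1.22 over all genes tested. Without NEJ723 the count was 9 of 10, with H2-Ab1 below 2-fold, against 56.8% of all genes, and the medians were 1.42 for the members and 1.12 for all genes.

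Class I was set against class II as the ratio of summed UMIs, B2m, H2-K1 and H2-D1 over Cd74, H2-Aa and H2-Ab1. The ratio itself depends on how well each gene is captured, and only its change across tissues is read. It was lowest in NEJ146, at 8.94 ± 0.793 (SD, n = 4 sections), followed by 11.0 in NEJ687 (10.8 to 11.2) and 11.1 in NEJ634 (10.9 to 11.4). It was 27.2 in NEJ723 (26.0 to 28.5), 29.3 in NEJ677 (28.4 to 30.2) and 30.6 in NEJ638 (29.7 to 31.6), and highest in NEJ654 at 42.9 (41.6 to 44.3). By this sum NEJ634 and NEJ687 could not be told apart, nor could NEJ677 from its neighbors NEJ723 and NEJ638, whose intervals it overlapped. With H2-Q10 in class I these pairs separated: NEJ634 (20.4 to 21.3) from NEJ687 (18.7 to 19.5), and NEJ677 (63.2 to 67.2) from NEJ723 (53.7 to 58.9) and NEJ638 (69.0 to 73.2). Without Cd74 in class II, NEJ677 (74.7 to 82.4) lay above NEJ638 (63.8 to 69.7). These orders thus depend on the genes summed. The tissues reached a high ratio from different sides: NEJ723 had the lowest sums of both classes, 1119 CPM for class I and 41.1 CPM for class II, whereas NEJ654 had the highest class I sum, 3932 CPM, with 91.6 CPM for class II. The lowest ratio, that of NEJ146, came with 1613 CPM for class I and the highest class II sum, 181.8 CPM.

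**Figure D3:**
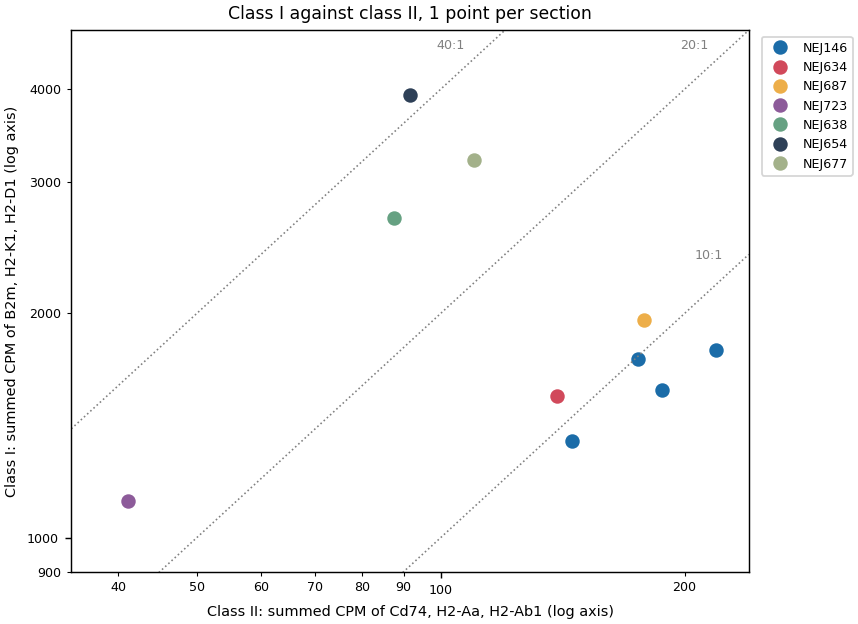
Summed class I CPM (vertical, log axis) against summed class II CPM (horizontal, log axis), 1 point per section, with dotted lines of equal ratio. The NEJ146, NEJ634 and NEJ687 sections lie near the 10:1 line, while NEJ723 lies far down the left side at a ratio of 27.2, close to those of NEJ638 and NEJ677.

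Markers of cells that make class II were set beside these sums. C1qa, C1qb and C1qc, which macrophages express, summed to 642 CPM in NEJ146, 600.2 in NEJ634, 857 in NEJ687, 473 in NEJ723, 183 in NEJ638, 292 in NEJ654 and 262 in NEJ677. The class II sum was 0.0870 times the C1q sum in NEJ723 and between 0.208 and 0.478 times in the other 6. Against all 10 macrophage markers the gap was narrower, at 0.0607 in NEJ723 (0.0578 to 0.0637), 0.0763 in NEJ687 (0.0748 to 0.0779) and 0.108 to 0.205 in the other 5. The other macrophage markers were uneven in NEJ723. Clec4f was at 0.275 CPM there and 75.2 to 152 CPM elsewhere, and Vsig4 at 0.665 CPM against 22.5 to 83.7 CPM. In contrast, Cd5l was at 90.6 CPM in NEJ723 and 65.02 CPM in NEJ638, and Csf1r was at 46.0 and 31.7 CPM. Clec4g, a marker of liver sinusoidal endothelium, was at 2.66 CPM in NEJ723 and 18.1 to 70.1 CPM elsewhere. Other endothelial markers were mixed. Egfl7 was at 106 CPM in NEJ723 and 38.2 to 102 CPM elsewhere, and Stab2 at 29.5 against 28.9 to 59.0 CPM. The endothelial list summed to 178 CPM in NEJ723 and to 189 to 270 CPM elsewhere. None of the 7 dendritic cell, 5 B cell and 8 T and NK cell markers reached the minimum of 10 CPM. Their summed levels lay between 6.85 and 12.6 CPM for dendritic cells, 8.17 and 16.8 CPM for B cells and 6.10 and 30.6 CPM for T and NK cells. The part of cell content in the class II levels was not tested.

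Other genes of the same pathways came from fixed lists, whose counts past 2-fold stand beside the 62.2% of all genes tested and are not read further. Of 11 other class I heavy chain genes, 4 passed the minimum and all 4 varied past 2-fold. Cd1d1, which presents lipids, was at 147 CPM in NEJ638, 242 in NEJ677 and 307 in NEJ654 and no higher than 55.6 CPM in any other tissue, and H2-T23, whose product is read by NK cell receptors, was at 139 to 160.1 CPM in the former and 40.03 to 72.7 CPM in the latter. Of 10 other peptide loading genes all passed the minimum and 5 varied past 2-fold. The transporter partner Tap2 was at 15.0 to 18.1 CPM in NEJ638, NEJ654 and NEJ677 and at 4.63 to 9.72 CPM in the others. The endoplasmic reticulum chaperones did not share that order, since Canx was at 261 to 304 CPM in those 3 tissues and 322 to 594 CPM in the others. Calr was at 492 to 522 and 515 to 947 CPM, ranges that overlapped. The Tap1 over Tap2 ratio stayed between 1.42 and 2.58.

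Of 11 other class II pathway genes, 10 were found in the files, 3 passed the minimum and all 3 varied past 2-fold. H2-Eb1, another class II beta chain, was at 36.1 CPM in NEJ146, 23.3 in NEJ634, 19.3 in NEJ687, 12.7 to 15.0 in NEJ638, NEJ654 and NEJ677 and 5.66 in NEJ723. The lysosomal proteases did not share the low NEJ723 value: Lgmn was at 274 CPM and Ctss at 73.0 CPM there, against 70.6 to 86.4 and 23.3 to 42.2 CPM in NEJ638, NEJ654 and NEJ677. Of 15 interferon response genes, 9 passed the minimum and 8 varied past 2-fold, in opposed orders. Iigp1, an interferon-induced GTPase, was at 305 CPM in NEJ677, 274 in NEJ654 and 147 in NEJ638 and at 2.98 CPM in NEJ723. Cxcl10, an interferon-induced chemokine, was at 125 CPM in NEJ723 and 108 in NEJ634 and at 7.74 to 24.7 CPM in the other tissues.

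Genes with the profile most like that of a member over the 7 tissues were named by Pearson correlation of log2(CPM + 1), as a description with no test, since a few tissues far from the rest fix such values. For B2m they were Tspyl1 (0.988), Rab21 (0.988) and Aff1 (0.985), and for H2-Q10 Lysmd1 (0.995), 1300017J02Rik (0.993) and Fam20a (0.992). For Cd74 they were Lcp1 (0.979), an actin-bundling protein of blood cells, Sulf2 (0.950) and Ppil3 (0.943). Among the members, B2m with H2-K1 was at 0.977 and Cd74 with H2-Aa at 0.971, whereas B2m with Cd74 was at 0.10.

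Within the sections, spots rich in the markers of a cell type or zone were compared with the other spots of the same section. Rich spots were those above the 75th percentile of summed marker level, and the value is the log2 ratio of (CPM + 1) between rich and other spots. A marker set was taken for macrophages, lymphocytes, endothelium, stroma (collagens and other genes of fibroblast-like cells), erythroid cells, proliferation, and the pericentral and periportal zones of the liver lobule. The tissue was the unit, with NEJ146 as the mean of its sections, and each mean over tissues was tested by exact permutation of signs, two-sided. With 7 tissues the smallest possible p is 0.0156, which gave an adjusted p of 0.0625 by Benjamini-Hochberg, so none of the 32 tests passed 0.05.

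Class II was highest in stromal-rich spots. The log2 ratio was 2.42 in NEJ146 (SD over sections 0.25), 1.96 in NEJ638, 1.15 in NEJ634, 1.047 in NEJ654, 0.75 in NEJ677, 0.62 in NEJ687 and 0.58 in NEJ723. It was positive in 7 of 7 tissues with a mean of 1.22 (exact permutation p = 0.0156, adjusted p = 0.0625). Cd74 was at 245 CPM in stromal-rich and 45.0 CPM in other spots of NEJ146, 103 and 26.9 CPM in NEJ638, 143 and 62.6 in NEJ634, 82.8 and 41.4 in NEJ654, 96.0 and 59.7 in NEJ677, 142 and 93.7 in NEJ687, and 33.7 and 21.9 in NEJ723. The absolute gap thus differed widely between tissues, while its direction was the same in each.

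Class I did not share that pattern except in NEJ146 and NEJ687. Its log2 ratio in stromal-rich spots was 0.69 in NEJ146, 0.24 in NEJ687 and between −0.02 and 0.05 in the other 5 tissues (mean 0.14, exact permutation p = 0.109, adjusted p = 0.20), with a mean of 0.049 without NEJ146. Class II minus class I was positive in 7 of 7 tissues with a mean of 1.08 (exact permutation p = 0.0156, adjusted p = 0.0625). The peptide supply genes lay between, at 1.06 in NEJ146, 0.54 in NEJ634, 0.33 in NEJ723, 0.29 in NEJ687, 0.21 in NEJ638, 0.11 in NEJ677 and 0.08 in NEJ654 (mean 0.37, 7 of 7, exact permutation p = 0.0156, adjusted p = 0.0625).

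Gene by gene, 7 of the 10 members were higher in stromal-rich spots of every tissue, against 10.5% of all genes tested. They were H2-D1, Tap1, Psmb8, Psmb9, Cd74, H2-Aa and H2-Ab1. The 3 class II genes had means of 1.20 for Cd74, 1.23 for H2-Aa and 1.18 for H2-Ab1, and H2-Eb1 from the other class II list was at 1.33 in the same direction in 7 of 7 tissues. H2-D1 had a mean of 0.28, from 0.03 in NEJ654 to 0.95 in NEJ146, and of 0.17 without NEJ146. H2-Q10 was lower in stromal-rich spots of every tissue but NEJ146, with a mean of −0.10 and the lowest value, −0.41, in NEJ634, without which the mean was −0.046. Stromal-rich spots also held 3 of 9 interferon response genes higher in all 7 tissues. Of the marker lists, 3 of 6 endothelial genes, 1 of 6 neutrophil genes and none of 10 macrophage genes were higher in all 7. The neutrophil gene S100a8 had a mean of 0.47 (7 of 7) and S100a9 of 0.44 (6 of 7). The part of these cells in the class II values was not tested.

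Macrophage-rich spots held more class II in 6 of 7 tissues, with log2 ratios of 0.74 in NEJ146, 0.68 in NEJ654, 0.56 in NEJ687, 0.55 in NEJ677, 0.50 in NEJ723, 0.42 in NEJ638 and −0.13 in NEJ634 (mean 0.47, exact permutation p = 0.031, adjusted p = 0.083). With marker levels taken over adjacent spots the mean was 0.19 (adjusted p = 0.34 by the same permutation test). In NEJ634 all 3 class II genes had negative values, from −0.17 for Cd74 to −0.07 for H2-Ab1. Members higher in every tissue numbered 3 of 10, H2-K1, H2-D1 and Psmb9, against 3.40% of all genes tested, with means of 0.05, 0.27 and 0.21. The H2-K1 value in NEJ146 was only 0.0015, and that of Psmb9 in NEJ677 was 0.015. Neutrophil markers were higher there too, 4 of 6 in every tissue, and their part was not tested. The proteases Ctss (mean 0.84) and Lgmn (mean 0.58), both strong in macrophages, were higher in macrophage-rich spots of all 7 tissues, NEJ634 among them. Since Clec4f and Vsig4 were near 0 in NEJ723, the rich spots there rest on the other genes of the list.

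Lymphocyte-rich spots had higher class II in 7 of 7 tissues, from 0.20 in NEJ687 to 1.26 in NEJ638 (mean 0.53, exact permutation p = 0.0156, adjusted p = 0.0625), with class I at a mean of 0.02, or 0.035 without NEJ146. Peptide supply was also higher there in 7 of 7 tissues (mean 0.14, exact permutation p = 0.0156, adjusted p = 0.0625). Members higher in every tissue numbered 4 of 10, H2-D1, Psmb8, Cd74 and H2-Ab1, against 2.59% of all genes tested. H2-D1 was at 329.8 CPM in both rich and other spots of NEJ687, so its place in that count rests on almost no gap. These spots were called from few UMIs, since the summed T, NK and B cell markers were at 16.7 to 38.8 CPM, and in NEJ638 and NEJ677 a smaller share of spots than elsewhere, 623 of 3366 and 584 of 2468, could be called rich.

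The lobular zones were compared last, by markers that were uneven over the tissues. The pericentral set summed to 81.4 to 479 CPM in NEJ146, NEJ634, NEJ687 and NEJ723 and to 4185 to 6280 CPM in the others. In NEJ723 Cyp2e1 was at 1.21 CPM, Cyp1a2 at 0.985, Cyp2f2 at 8.16 and Pck1 at 10.95. Its pericentral- and periportal-rich spots thus rest largely on the other genes of the lists. Such spots need not mark a lobular zone in every tissue. In periportal-rich spots class I was higher in 7 of 7 tissues, at 0.64 in NEJ146, 0.22 in NEJ634, 0.09 in NEJ687 and between 0.01 and 0.05 in the other 4 (mean 0.15, exact permutation p = 0.0156, adjusted p = 0.0625). Without NEJ146 the mean was 0.072. Class II was higher there in 5 of 7 tissues with a mean of 0.13, or 0.087 without NEJ638 and 0.20 without NEJ634, and class II minus class I had a mean of −0.018 (4 of 7, exact permutation p = 0.891, adjusted p = 0.891). Of 5 hepatocyte genes, Alb (mean 0.37), Cps1 (0.31) and Serpina1a (0.14) were also higher in periportal-rich spots of all 7 tissues, while Ttr (−0.032) and Apoa1 (0.0079) were higher in 2 of 7. Their part in the class I values was not tested. Members higher in every tissue numbered 3 of 10, H2-K1, H2-D1 and H2-Q10, against 2.18% of all genes tested. H2-Q10 was the most even of these, between 0.11 and 0.43 in the 7 tissues. In pericentral-rich spots class II was at −1.33 in NEJ638, −0.70 in NEJ677, −0.67 in NEJ634, −0.49 in NEJ654, −0.10 in NEJ687, 0.09 in NEJ723 and 0.62 in NEJ146 (mean −0.37, exact permutation p = 0.19, adjusted p = 0.30), and the mean was −0.21 without NEJ638. Class II minus class I there was lower than 0 in 6 of 7 tissues, with NEJ723 at 0.14, and had a mean of −0.45 (exact permutation p = 0.0625, adjusted p = 0.125). Class I in pericentral-rich spots was at 0.74 in NEJ146, where it was thus high in both kinds of spots, and between −0.08 and 0.04 in the other tissues. In proliferation-rich spots class I was at −0.47 in NEJ146 and between −0.10 and 0.01 elsewhere (mean −0.10, exact permutation p = 0.062, adjusted p = 0.14), with a mean of −0.040 without NEJ146. In endothelial-rich spots summed peptide supply was higher in 7 of 7 tissues, with a mean of 0.087 (exact permutation p = 0.0156, adjusted p = 0.0625) and of 0.054 without NEJ146. In NEJ634 and NEJ677 that value was only 0.0016. No single member was higher in every tissue in endothelial-, erythroid-, proliferation- or pericentral-rich spots, against 6.23%, 0.836%, 9.94% and 3.89% of all genes tested, so 0 of 10 is near the background there. The median UMIs of rich spots were 0.774 to 1.20 times those of other spots for the stromal set and 0.771 to 1.32 times for the lymphocyte set.

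**Figure D4:**
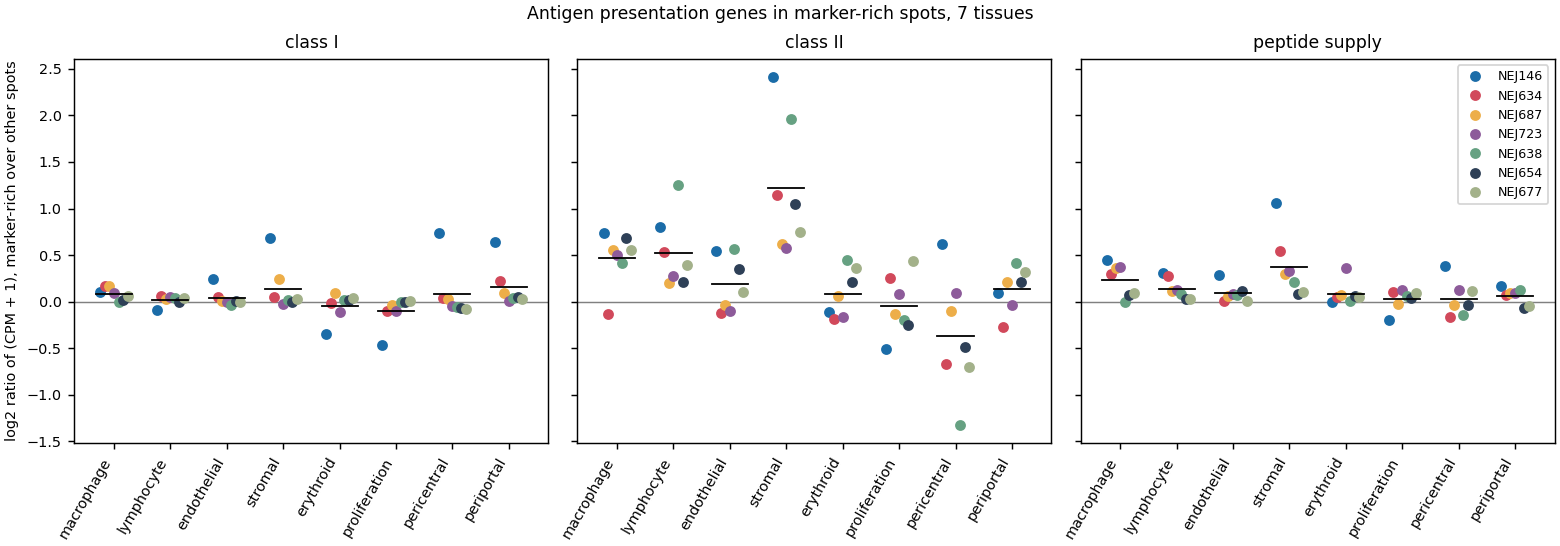
Log2 ratio of (CPM + 1) between marker-rich and other spots (vertical axis) for summed class I, class II and peptide supply genes in 8 kinds of marker-rich spots. Points are tissues and black lines their means; the stromal class II values, 0.58 to 2.42, are all above 0 and above the class I value of the same tissue.

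To ask whether high and low spots lie together, Moran's I was used, the similarity of adjacent spots, of each gene's level after its trend on the depth of the spot was removed. Of 70 member and tissue pairs, 61 lay above the median of all genes in their tissue, a measure that follows a gene's UMI count as well as its arrangement. Summed class I was at 0.647 in NEJ146, 0.227 in NEJ634, 0.180 in NEJ687, 0.087 in NEJ654, 0.057 in NEJ638, 0.056 in NEJ677 and 0.051 in NEJ723. Summed class II was at 0.524 in NEJ146, 0.172 in NEJ634, 0.167 in NEJ638, 0.115 in NEJ687, 0.093 in NEJ654, 0.083 in NEJ723 and 0.041 in NEJ677. In NEJ638, NEJ723 and NEJ654 class II was above class I, although it had far fewer UMIs. The SD over NEJ146 sections was 0.035 for class I and 0.044 for class II. That SD does not measure the error of a single section of another tissue, so these gaps were not judged by it.

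Single genes differed. H2-Q10 was at or above the 96.6th percentile of all genes in every tissue, with values of 0.125 in NEJ687 to 0.403 in NEJ634. B2m was at 0.538 ± 0.036 in NEJ146 (SD, n = 4 sections) and between 0.033 and 0.176 in the others. H2-D1 was at −0.005 in NEJ638, the 19.1st percentile, and Tap1 and Psmb9 were at −0.016 and −0.015 there. The rare transcripts carry little power for such a measure, and a low value was not read as an even spread.

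Across the spots of a section, class I and class II levels had a Pearson correlation of 0.45 in NEJ146, 0.20 in NEJ634, 0.17 in NEJ687, 0.07 in NEJ638 and NEJ677, 0.06 in NEJ723 and 0.05 in NEJ654, given as a description over spots of a shared library. Genes most like class I across spots, by the mean over tissues, were Hpx (0.30), Alb (0.29), Hp (0.28), Apoe (0.26) and Trf (0.23), all secreted hepatocyte products. Those most like class II were Mgp (0.32), Spp1 (0.30), Col3a1 (0.25), Igfbp7 (0.25) and Tmsb4x (0.25), which include matrix, duct and vessel genes. These values are weak in most tissues, with Hpx between 0.12 and 0.75 and Mgp between 0.10 and 0.63.

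To lower the counting error, spots were pooled into blocks of about 100, of which a section held 19 to 48. The 90th percentile of class I over blocks was 2.40 times the 10th in NEJ146 (2.28 to 2.60 over sections) and 1.10 to 1.297 times in the other tissues. For class II it was 8.69 times in NEJ146 (7.13 to 9.61 over sections), 3.74 times in NEJ638 and 1.39 to 1.89 times in the others. The spread of class II was the larger in 7 of 7 tissues, and since its blocks hold fewer UMIs, part of that is counting error. Single NEJ638 blocks had between 32.5 and 304 CPM of class II while class I stayed between 2459 and 2859 CPM.

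In NEJ146 both classes were high in the same blocks. Over its blocks class I and class II correlated at 0.73 to 0.83 in the 4 sections, as a description, against 0.59 in NEJ687 and −0.24 to 0.32 in the other 5 tissues. Class I correlated with hepatocyte products there, at 0.95 to 0.97 with Alb, 0.96 to 0.98 with Hpx and 0.88 to 0.93 with Cyp2e1. Values were lower for Apoe, at 0.82 to 0.89, and for H2-Q10, at 0.64 to 0.79. Alb, Hpx and Apoe had been named as most like class I across the same spots, so their block values are no separate result. Class I ran against proliferation markers at −0.84 to −0.71. In blocks with the higher class I levels Alb was at 13390 CPM (SD 2343, n = 4 sections) and Cyp2e1 at 385 CPM, and in the others at 5166 and 65.8 CPM. Afp was at 1841 and 2238 CPM in the same blocks. Class II correlated with the stromal markers at 0.92 to 0.95 in NEJ146 and 0.42 to 0.65 in the other 6 tissues. In NEJ146 the crossed pairs were high too, at 0.72 to 0.86 for class I with the stromal markers, 0.74 to 0.83 for class II with Alb and 0.76 to 0.84 for class II with Hpx, so each class followed both kinds of gene.

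**Figure D5:**
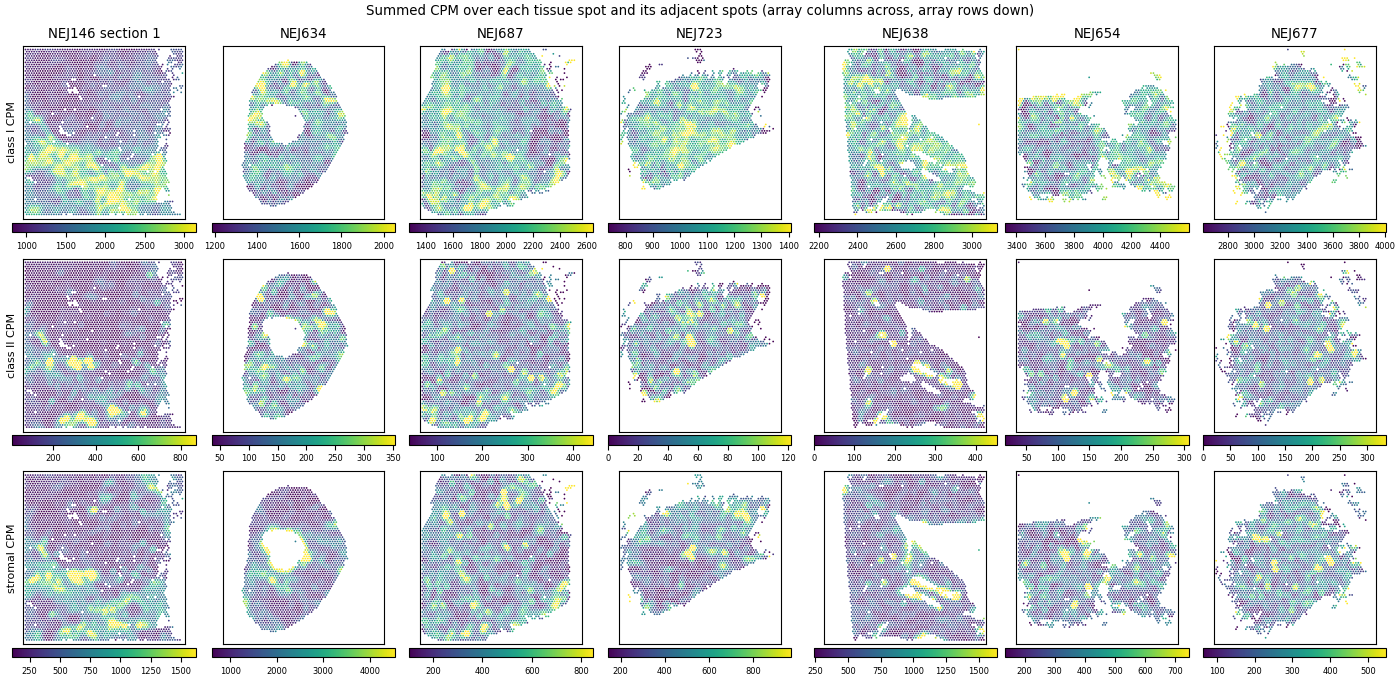
Maps of summed class I (top), class II (middle) and stromal marker (bottom) CPM, averaged over each tissue spot and its adjacent spots, with array columns across and array rows down and a color scale of its own for each panel. NEJ146 section 1 shows a lower zone of high class I, while class II shows small foci, several of them over stromal foci. Whether the foci of tissues with few class II UMIs exceed counting error was not tested.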

How the data were processed

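Frozen sections of 7 mouse tissues (10 libraries) were profiled on Visium slides. The deposited matrices hold raw counts of UMIs for every gene in every spot of the slide, to which the authors applied neither a filter nor a normalization. The submitters' processing notes name Cell Ranger 6.0 for NEJ146 and Space Ranger 1.3 with mm10 for the other tissues, and the matrix headers and the methods name other versions. Deposited position lists gave tissue spots for 6 tissues. For NEJ146, spots with at least 8000 UMIs were used, and array coordinates came from the same barcodes on the other slides. No doublet caller was run, since spots are not cells. The spot barcodes are those of the slide design and are shared by all libraries.

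Counts were summed over tissue spots as CPM with a pseudocount of 1. Spot analyses used spots with at least 1000 UMIs. The adjacency used the 6 nearest array positions. Genes named were the 10 members, of each fixed list the 2 highest genes and the 2 with the largest range among those with a mean of at least 10 CPM, and the likeness lists of 3 or 5 genes. H2-Eb1, Ctss, Lgmn and Cxcl10 in marker-rich spots were among these. Csf1r, C1qa, C1qc, Cps1 and Apoa1, other members of the lists, and genes set against blocks were chosen after their values were seen. The members and lists were chosen with earlier results of these data known. Tests were exact sign-flip permutations over tissues, adjusted by Benjamini-Hochberg over 24 tests of class I, class II and peptide supply and over 8 of their difference. Each tissue was its own group, taken from the labels. Spot tests were checked on simulated data with 200 changed genes. Alternatives changed the tissue spots, the UMI and CPM minimum, the pseudocount, the denominator, the genes summed, the share of rich spots and the libraries. Promoters came from RefSeq (GRCm38.p6) and gene positions from GENCODE on GRCm38. Python 3.11.15, numpy 2.4.6, scipy 1.17.1, pandas 2.3.3 and matplotlib 3.10.9 were used.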

Additional observations from a re-analysis of the deposited data

Results flagged for a closer look

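Among 58 groups of the 4 adjacent NEJ146 sections, 3 held a section far from the others by Dixon's criterion, where chance gives about 1 in 20. Class I in macrophage-rich spots was at a log2 ratio of 0.16 in section 1 and 0.08 in the other 3. Class I in endothelial-rich spots was at 0.29 in section 4 and between 0.23 and 0.24 in the others. Class II minus class I in stromal-rich spots was at 1.89 in section 4 and between 1.66 and 1.69 in the others, with all 4 sections above 0.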

How the results depend on the processing

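Of 882 recomputed values, 842 were labeled the same, 25 moved (18 of them class ratios of single tissues and 6 log2 ranges of members) and 15 reversed. Marker tests gave 640 of the values and were compared by direction and side of 0.05 only, not by size. Among them 625 kept their direction. No marker test passed 0.05 under any alternative (lowest adjusted p 0.0536 by sign-flip permutation). Class II in stromal-rich spots stayed between 0.98 and 1.57, class II minus class I there between 0.84 and 1.45, class II in lymphocyte-rich spots between 0.40 and 0.74 and in macrophage-rich spots between 0.19 and 0.63. With H2-Q10 in class I, the log2 range of the class ratio was 2.55 in place of 2.27. Every reversed value was close to 0 under the chosen settings. With rich spots above the 90th percentile, class II in proliferation-rich spots was 0.062 and peptide supply in pericentral-rich spots −0.016. With rich spots above the median, peptide supply was −0.021 in proliferation-rich and −0.0096 in periportal-rich spots, and class II minus class I in periportal-rich spots was 0.014. With marker levels over adjacent spots, class II minus class I was 0.27 in periportal-rich and −0.00024 in proliferation-rich spots. Without NEJ146, class I was 0.0068 in erythroid-rich and −0.031 in pericentral-rich spots, class II in proliferation-rich spots 0.030, peptide supply in pericentral-rich spots −0.026 and class II minus class I in periportal-rich spots 0.069. The last was 0.0039 without Cd74 and 0.060 without NEJ634, and in proliferation-rich spots −0.0074 without NEJ677 (both added after the data were seen). The cause was not tested. Without NEJ146, the counts of members higher in every tissue stayed at 7, 3, 4 and 3 in stromal-, macrophage-, lymphocyte- and periportal-rich spots, against 11.9%, 4.27%, 2.76% and 2.92% of genes, and H2-D1 became higher in erythroid-rich spots of all tissues left. Depth limits the rarest members in single tissues, such as H2-Aa and Psmb8 in NEJ723 with 266 and 300 UMIs. With marker levels over adjacent spots, class II in macrophage-rich spots was at the lower end of its range.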

Other observations

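RNA was also counted on spots outside the tissue calls of the 6 tissues with a position list. The CPM of a gene there, divided by its CPM over tissue, was 0.919 to 1.21 for B2m, 0.518 to 0.814 for H2-Q10 and 0.604 to 0.894 for Cd74. It was 0.900 to 1.27 for H2-Aa, 0.848 to 1.14 for H2-Ab1, 0.887 to 1.26 for Psmb8 and 0.933 to 1.51 for Psmb9. The median UMIs per spot were 6659.5 to 11895 off tissue and 12133.5 to 28926.5 over tissue. They lay closest in NEJ638, at 11895 off and 12535 over tissue, and the part of that small gap in the NEJ638 spot values was not tested. In NEJ634 they were 10520.5 and 28926.5. The source of the off-tissue RNA was not tested.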
